A study of Mus musculus with 2 samples.

Results

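The genes of MHC class I antigen presentation were followed across the immune cells of the mouse dorsal root ganglion (DRG), the cluster of sensory neuron cell bodies beside the spinal cord. The set is a fixed list of 10 genes among the 16819 gene symbols of the analysed matrix: H2-K1, H2-D1, B2m, H2-T23, Tap1, Tap2, Tapbp, Calr, Pdia3 and Nlrc5. All 10 were present in the matrix and together held 137050 of its 23403638 unique molecular identifiers (UMIs, each of which marks 1 captured RNA molecule). After the filter on low counts, 9 of the 10 were tested between cell types, and Nlrc5, with 58 UMIs in 56 cells, was not.

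Class I molecules display peptides from inside the cell to CD8+ T cells and are read by receptors of natural killer (NK) cells. H2-K1 and H2-D1 encode the classical heavy chains, H2-T23 the nonclassical heavy chain of Qa-1, and B2m the light chain β2-microglobulin that every one of these needs to reach the surface. Peptides cut by the proteasome enter the endoplasmic reticulum through the transporter made of Tap1 and Tap2. Tapasin (Tapbp) holds the empty class I molecule at the transporter, together with the chaperones calreticulin (Calr) and ERp57 (Pdia3). Nlrc5 is a transactivator of class I promoters, and interferons are known to raise most genes of the pathway. Among dendritic cells, the type 1 conventional subset (cDC1) is known for presenting engulfed antigen on class I.

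All 10 genes matched a protein-coding gene of GENCODE M21 (GRCm38) by identifier, and 6 of them lie on chromosome 17, in the region of the major histocompatibility complex. These were Tapbp (chr17:33915899-33929292, plus strand), H2-K1 (chr17:33996017-34000347, minus strand), Tap1 (chr17:34187553-34197225, plus strand), Tap2 (chr17:34203527-34216321, plus strand), H2-D1 (chr17:35262730-35267499, plus strand) and H2-T23 (chr17:36029773-36032855, minus strand). B2m (chr2:122147686-122153083) and Pdia3 (chr2:121413775-121438687) lie on chromosome 2, both on the plus strand. Nlrc5 (chr8:94434356-94527272, plus strand) and Calr (chr8:84841850-84846934, minus strand) lie on chromosome 8.

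Promoter sequence, taken as the 250 bases before a RefSeq start site (GRCm38.p6), was available for 8 of the 10 genes in 9 windows, since H2-K1 has 2 start sites. Nlrc5 and Tap2 had no entry. Each window was searched on both strands for GAAA followed by any 2 bases and GAAA, the core letters of an interferon-stimulated response element (ISRE), for CCAAT, the letters of a CCAAT box, and for TGACG, the core of a cAMP response element. The windows of B2m and of the upstream start site of H2-K1 (chr17:34000348-34000597, minus strand) are shown whole because they belong to a light and a heavy chain of the same complex. They are printed 5′ to 3′ with matches to any of the 3 motifs in capitals (ATTGG is CCAAT on the opposite strand). The B2m window spans chr2:122147437-122147686 on the plus strand.
B2m: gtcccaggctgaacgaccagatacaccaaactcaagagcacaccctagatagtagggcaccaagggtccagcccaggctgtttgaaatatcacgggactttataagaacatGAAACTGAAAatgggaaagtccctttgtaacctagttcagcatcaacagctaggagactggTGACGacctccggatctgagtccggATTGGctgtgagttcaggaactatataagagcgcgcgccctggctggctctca
H2-K1: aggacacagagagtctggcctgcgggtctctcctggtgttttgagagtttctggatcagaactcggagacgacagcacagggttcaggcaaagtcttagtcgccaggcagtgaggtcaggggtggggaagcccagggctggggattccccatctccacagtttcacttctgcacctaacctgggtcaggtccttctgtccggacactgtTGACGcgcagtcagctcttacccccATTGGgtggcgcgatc

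The ISRE letters were found in 2 of the 9 windows, 139 bases before the start in B2m and 124 bases before it in H2-T23, where it lies on the opposite strand. Among all 32851 RefSeq promoter windows of this length, 2.98% held it. Only exact matches were counted, so a window without a match can still hold a response element that departs from these letters. CCAAT was found in 9 of 9 windows (33.8% of all windows) and TGACG in 6 of 9 (17.8% of all windows). The 2 windows of H2-K1 share 236 of their 250 bases, so that its matches count in both, and by gene TGACG was found in 5 of 8. The windows of Pdia3, Tapbp, Tap1 and H2-D1 lie wholly in annotated exons of GENCODE, and 154 of the 250 bases of that of H2-T23 do. The 30 bases around the ISRE match of H2-T23 (chr17:36032806-36032835, minus strand) and around the TGACG match of H2-D1 (chr17:35262980-35263009, plus strand) and of Tap1 (chr17:34187457-34187486, plus strand) are given for comparison, with that match in capitals.
H2-T23: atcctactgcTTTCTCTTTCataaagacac
H2-D1: gccgggacactgaTGACGcgctggcaggtc
Tap1: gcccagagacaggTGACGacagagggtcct
Tap1 lies head to head with Psmb9, which encodes an inducible subunit of the immunoproteasome and is read in the opposite direction (chr17:34181987-34187764, minus strand). Their promoter windows overlapped by 225 of 250 bases. These matches are a description of the letters and were not tested for binding.

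The cells came from naive, wild-type BALB/cAnNRj mice, 3 male and 3 female, whose DRGs (on average 40, pooled from cervical, thoracic and lumbar levels) were digested and sorted for CD45+ cells without DAPI stain. Each mouse carried its own hashtag antibody, and all cells were loaded in 1 lane of the 10x 3′ v3 assay. The main matrix held the cells of the 3 male mice (481, 772 and 1415 cells, with a median of 8283.5 UMIs per cell), and 1073 cells of the 3 female mice were recovered from the larger matrix. The age of the mice is not given in the labels, and a hashtag was taken as 1 mouse. The mice carry the H2-d haplotype, whereas reads were counted against mm10, which derives from a strain of the H2-b haplotype. The part of this mismatch in the counts of H2-K1, H2-D1 and H2-T23 was not tested. Nor was it tested for the other heavy chains named below (H2-M3, H2-Q7, H2-T22 and H2-T24). The last 500 bases of the longest annotated transcript of each gene were read as 411 windows of 90 bases. For 9 genes none of these windows occurred, letter for letter, in an annotated transcript of another gene. Of those of H2-T23, 12.2% also occurred in Hook2 or Rab33b. This search covered the 10 genes in GRCm38 transcripts only, so it cannot show sequence shared with genes of the H2-d haplotype. The ends of shorter transcripts of the 10 genes were not searched.

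Cell types were set by fixed genes, none of which belongs to the 10. A macrophage had at least 0.5% of its UMIs in C1qa, C1qb and C1qc, a neutrophil at least 5% in S100a8 and S100a9, a B cell at least 4 UMIs of Cd79a and Cd79b, a T cell at least 2 UMIs of Cd3d, Cd3e and Cd3g, and a cDC1 at least 2 UMIs of Xcr1 and Clec9a. In the male mice 1442 cells were macrophages, 272 neutrophils, 161 B cells, 76 T cells and 48 cDC1, while 327 cells that met several definitions and 342 that met none were left out. Of those that met several, 283 met the neutrophil and the T cell definition through Cd3d (1366 UMIs, against 8 of Cd3g and 0 of Cd3e) and had 44040 CPM (counts-per-million, here without scaling) of the neutrophil gene Ngp. Every marker that did not serve the definitions was highest in its own type (8 of 8 for macrophages, 8 of 8 for neutrophils, 6 of 6 for B cells, 7 of 7 for T cells and 7 of 7 for cDC1). The T cell group also held the NK genes Ncr1, Klrb1c and Gzma at a summed 344 to 526 CPM (without scaling) in its 3 mice, against a mean of at most 0.729 in the other types. Summed macrophage markers in cDC1 reached 10.6% of their level in macrophages.

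UMIs were summed per mouse and cell type, giving 15 sums for the male mice that ranged from 61388 UMIs (12 T cells of mouse 2) to 7504750 (749 macrophages of mouse 3). The smallest number of cells in a sum was 5 (cDC1 of mouse 1). Levels are from here on given as CPM after TMM scaling, in the order mouse 1, mouse 2, mouse 3. In a sum, fewer expressing cells and less RNA per cell cannot be told apart. The plot of levels by cell type shows all of these values.

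**Figure D1:**
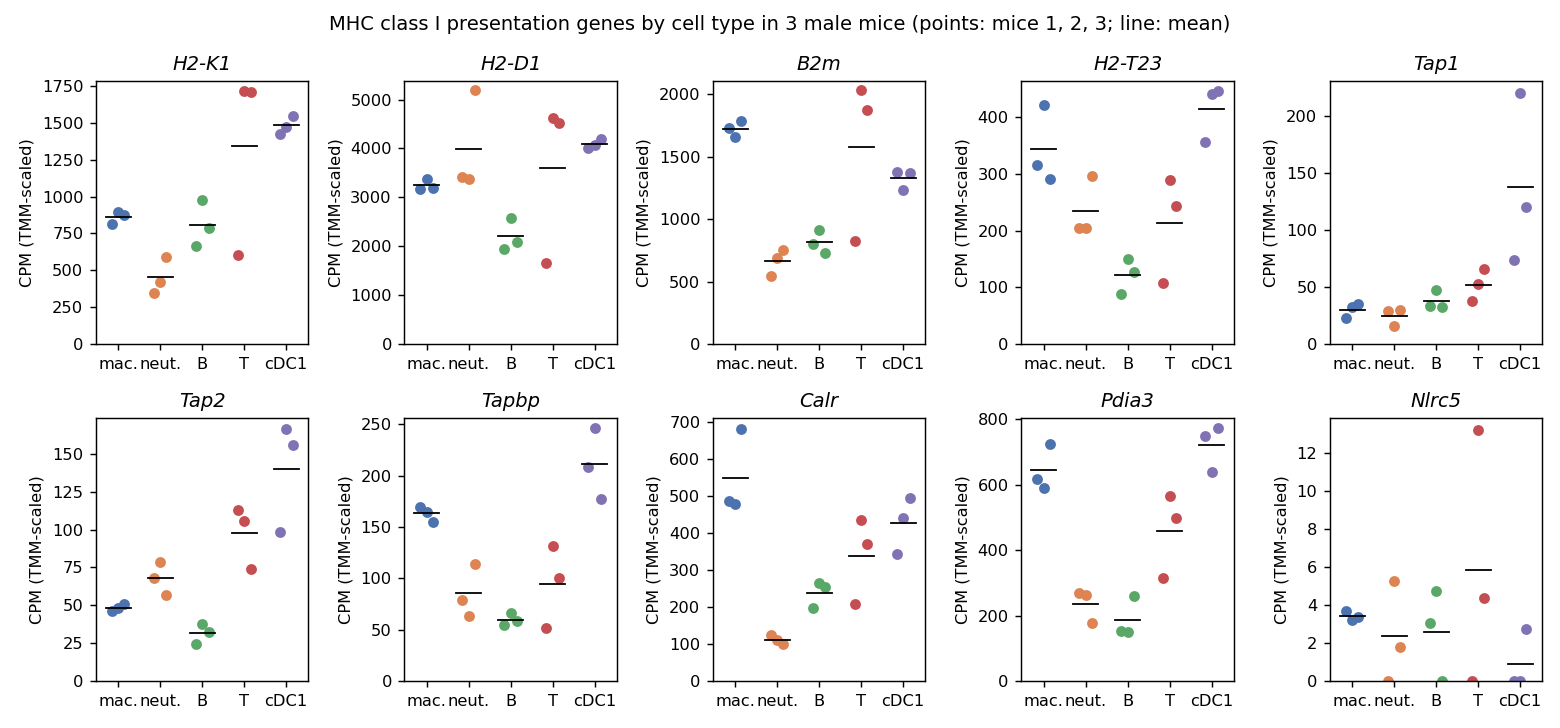
CPM (TMM-scaled) of each of the 10 genes in 5 cell types of the 3 male mice; each point is the sum of 1 mouse, each line the mean of the 3 mice, and colors mark cell types. Tap1 in cDC1 (73.6 to 220 CPM) lies above every other sum of that gene, and Nlrc5 stays below 14 CPM throughout.

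The classical heavy chain H2-K1 measured 817, 893 and 873 CPM in macrophages, 344, 420 and 592 in neutrophils, 664, 976 and 786 in B cells, 601, 1714 and 1710 in T cells and 1423, 1474 and 1547 in cDC1. The mean fell from cDC1 (1482 ± 62.5 SD, n = 3) over T cells (1342 ± 641), macrophages (861 ± 39.2) and B cells (809 ± 157) to neutrophils (452 ± 127). Of the neighbours in this order, B cells and neutrophils differed (adjusted p = 0.0177; quasi-likelihood test of edgeR, adjusted over all genes by the Benjamini-Hochberg method, as in all comparisons that follow), whereas the other 3 neighbouring pairs did not pass the test (adjusted p = 0.0668 to 0.774). The T cell sum of mouse 1 stood apart from those of mice 2 and 3.

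H2-D1, the other classical heavy chain, was at 3171, 3371 and 3189 CPM in macrophages, 3412, 3384 and 5201 in neutrophils, 1946, 2570 and 2092 in B cells, 1659, 4615 and 4514 in T cells and 4012, 4062 and 4202 in cDC1. No pair of neighbours in the order cDC1, neutrophil, T cell, macrophage and B cell passed the test (adjusted p = 0.066 to 0.945). B cells and cDC1, which are not neighbours, differed. There 9 of 9 tested genes, H2-D1 among them, were called lower in B cells (24.6% of all genes were). The T cell sums of mice 2 and 3 lay above those of cDC1, and that of mouse 1 was the lowest of all 15.

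B2m, the shared light chain, had its highest mean in macrophages, with 1728, 1658 and 1784 CPM, and measured 822, 2031 and 1875 in T cells, 1374, 1234 and 1372 in cDC1, 800, 915 and 729 in B cells and 548, 687 and 751 in neutrophils. Of the neighbours in this order, cDC1 and B cells differed (adjusted p = 0.0183), and the other 3 pairs did not pass the test (adjusted p = 0.307 to 0.625). In mice 2 and 3 the T cell sums lay above the macrophage sums, and in female mice the mean was 2023 CPM in T cells and 1851 in macrophages, a difference that did not pass the test either (adjusted p = 0.641). The 3 neutrophil sums all lay below the macrophage, cDC1 and T cell sums.

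The nonclassical heavy chain H2-T23, whose product is a ligand of the NK receptor CD94/NKG2A, was at 316, 422 and 292 CPM in macrophages, 204, 205 and 297 in neutrophils, 87.9, 151 and 128 in B cells, 108, 290 and 244 in T cells and 356, 440 and 446 in cDC1. No neighbours in the order cDC1, macrophage, neutrophil, T cell and B cell passed the test (adjusted p = 0.0719 to 0.481), while B cells and macrophages, which are not neighbours, differed (adjusted p = 3.58e-05).

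Tap1, a subunit of the peptide transporter, measured 73.6, 220 and 120 CPM in cDC1 and 37.6, 52.7 and 65.4 in T cells. It was at 33.4, 47.2 and 32.4 CPM in B cells, 22.8, 32.2 and 34.9 in macrophages and 28.7, 15.7 and 30.2 in neutrophils. All 3 cDC1 sums lay above the 12 others, the lowest of them on 6 UMIs in 5 cells, and cDC1 differed from the next type, T cells (adjusted p = 0.00576). The 4 lower types could not be ordered (adjusted p = 0.436 to 0.616 between neighbours).

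Tap2, the other subunit, followed another order. It was at 98.1, 167 and 156 CPM in cDC1, 113, 105 and 74.1 in T cells, 68.1, 78.7 and 56.9 in neutrophils, 46.3, 48.1 and 51.1 in macrophages and 24.3, 37.7 and 32.4 in B cells. The neutrophil sums lay above all macrophage sums here, and the B cell sums below them. Of the neighbouring pairs only macrophages and B cells differed (adjusted p = 0.0305; 0.0704 to 0.106 for the others).

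Tapbp, which holds class I molecules at the transporter, measured 209, 247 and 178 CPM in cDC1, 170, 165 and 155 in macrophages, 51.7, 132 and 100 in T cells, 78.8, 63.0 and 114 in neutrophils and 54.6, 66.0 and 58.7 in B cells. Macrophages and T cells, next to each other in the order, differed (adjusted p = 0.00615), and the other neighbouring pairs did not pass the test (adjusted p = 0.0614 to 0.85).

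The chaperone Calr had its highest mean in macrophages, at 486, 477 and 682 CPM, against 344, 440 and 495 in cDC1, 207, 435 and 371 in T cells, 197, 264 and 255 in B cells and 125, 110 and 99.6 in neutrophils. Neutrophils were separated from B cells (adjusted p = 0.00107), and the other neighbouring pairs did not pass the test (adjusted p = 0.214 to 0.293). Pdia3, the thiol oxidoreductase that works with calreticulin, was at 748, 640 and 774 CPM in cDC1, 618, 591 and 725 in macrophages, 315, 567 and 497 in T cells, 269, 262 and 178 in neutrophils and 152, 151 and 259 in B cells. For Pdia3 the separated neighbours were T cells and neutrophils (adjusted p = 0.00361; 0.065 to 0.631 for the other pairs). Both chaperones had their lowest means in neutrophils and B cells.

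The transactivator Nlrc5 was close to the limit of detection in every type. Its macrophage sums held 5, 10 and 22 UMIs (3.67, 3.19 and 3.36 CPM), and every other sum of the male mice held 0 or 1 UMI. A level between cell types was not detectable at this depth.

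Calr, Pdia3, B2m, H2-K1 and Tapbp were lower in neutrophils than in macrophages, whereas H2-D1, H2-T23, Tap1 and Tap2 did not pass the test. In male mice 5 of 9 tested genes were lower (32.2% of all 5130 genes tested were called lower) and 0 were higher (28.1% of all genes). Calr was lowest relative to macrophages, with a log2 fold of -2.31 ± 0.24 (SE; adjusted p = 3.49e-08; 3 of 3 mice), which is 4.98-fold lower. Pdia3 (-1.48 ± 0.23, adjusted p = 9.05e-06), B2m (-1.38 ± 0.23, adjusted p = 2.19e-05), H2-K1 (-0.91 ± 0.27, adjusted p = 0.00644) and Tapbp (-0.83 ± 0.21, adjusted p = 0.00204) were also lower in 3 of 3 mice. H2-D1 did not follow, with a log2 fold of 0.31 and a 95% interval from -0.19 to 0.80, and neither Tap1 (-0.21), Tap2 (0.41) nor H2-T23 (-0.51, adjusted p = 0.0719) passed the test. H2-T23 was called lower in 6 of 12 alternatives, so its result turned on the setting. The median of the 9 genes was -0.83, against -0.13 over all genes tested. Without mouse 2 the count was 3 (B2m, Calr and Pdia3), because the adjusted p of H2-K1 became 0.0718 and that of Tapbp 0.052. Of all genes tested without mouse 2, 3288 of 6404 were called. With the cells that met both the neutrophil and the T cell definition counted as neutrophils, 7 genes were called, with H2-T23 lower and Tap2 higher beside the 5. Over all genes, 4152 of 6143 were then called, against 3097 of 5130 in the main fit. With cells thinned to 2000 UMIs and cells with fewer left out, H2-D1 was called higher in neutrophils (0.82, adjusted p = 0.000147). Thinning thus changed the set of cells as well as their depth. Without scaling factors H2-D1 was at -0.10.

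Of the 22 other genes of the class I pathway on the fixed list, 17 were tested, and in neutrophils 1 was higher and 10 were lower. H2-M3, a nonclassical heavy chain that presents N-formylated peptides, averaged 0.593 CPM in neutrophils against 68.6 in macrophages (adjusted p = 3.39e-09). The neutrophil value is at the limit of detection, since 1 UMI in the neutrophil sum of mouse 3 was 1.78 CPM. Fcgrt, the heavy chain of the neonatal Fc receptor, which also pairs with B2m, was at 14.1 against 562 CPM (log2 fold -5.19 ± 0.38, adjusted p = 1.2e-10).

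In B cells 6 of 9 genes were lower than in macrophages (32.4% of all genes were called lower) and 0 were higher (26.2% of all genes). The lower genes were a heavy chain, the light chain, a transporter subunit, tapasin and both chaperones. Pdia3 had a log2 fold of -1.74 ± 0.23 (adjusted p = 1.23e-06), H2-T23 of -1.51 ± 0.26 (adjusted p = 3.58e-05), Tapbp of -1.46 ± 0.23 (adjusted p = 1.42e-05), Calr of -1.21 ± 0.22 (adjusted p = 6.93e-05) and B2m of -1.09 ± 0.23 (adjusted p = 0.000301), each lower in 3 of 3 mice. Tap2 (-0.66 ± 0.25, adjusted p = 0.0305) lost its call without any 1 of the 3 mice (adjusted p = 0.113 to 0.15). H2-K1 was at -0.10 (95% interval -0.62 to 0.42), H2-D1 at -0.56 (adjusted p = 0.066) and Tap1 at 0.21 (adjusted p = 0.605). The median of the 9 genes was -1.09 and that of all genes -0.06. The direction of H2-K1 rests on the scaling. TMM factors were 1.40 to 1.41 for B cells and 0.875 to 0.927 for macrophages, and without them the median gene moved by 0.65. H2-K1 (0.56, adjusted p = 0.0433) and Tap1 (0.86, adjusted p = 0.0222) were then called higher in B cells. Pdia3, Calr, Tapbp and H2-T23 were still lower, and B2m was no longer called (-0.43, adjusted p = 0.0682). Of the other pathway genes, 0 of 17 were higher and 9 lower, led by Fcgrt (3.37 against 562 CPM, adjusted p = 3.29e-11) and Irf1, an interferon regulatory factor (47.6 against 127 CPM, log2 fold -1.54 ± 0.27, adjusted p = 4.61e-05).

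In T cells 1 gene of 9 was called higher than in macrophages (19.5% of all genes were called higher) and 3 lower (26.2% of all genes were called lower), and without mouse 1 none of these 4 calls was made. Tap2 was higher in 3 of 3 mice (log2 fold 0.96 ± 0.24, adjusted p = 0.00242). Tapbp (-0.92 ± 0.26, adjusted p = 0.00615), H2-T23 (-0.77 ± 0.27, adjusted p = 0.0239) and Calr (-0.77 ± 0.23, adjusted p = 0.00983) were lower in 3 of 3 mice. H2-K1 (0.62, adjusted p = 0.0668), H2-D1 (0.14), B2m (-0.15), Tap1 (0.74, adjusted p = 0.113) and Pdia3 (-0.53, adjusted p = 0.065) did not pass the test, and the median over the 9 genes was -0.15, against -0.03 over all genes. The part of the NK cells, whose genes were measured in this group, was not tested. Without mouse 1, Tap2 (0.72, adjusted p = 0.102), Tapbp (-0.57, adjusted p = 0.174), H2-T23 (-0.48, adjusted p = 0.193) and Calr (-0.58, adjusted p = 0.0693) lost their calls and H2-K1 was called higher (0.93, adjusted p = 0.00167). H2-T23 also lost its call without mouse 2 (adjusted p = 0.0888) and Calr without mouse 3 (adjusted p = 0.0549). Without scaling factors the 3 lower calls were absent, and H2-K1, H2-D1, Tap1 and Tap2 were called higher, the median gene having moved by 0.51.

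In the sum of mouse 1, 2 large cells with 30806 and 33899 UMIs gave 39.2% of the UMIs of its 27 T cells; they were singled out after their values had been seen. They carried 46.4 CPM (without scaling) of H2-K1 against 1243 in the other 25 cells, 124 against 3431 of H2-D1 and 170 against 1631 of B2m. The T cell receptor gene Trbc2 was at 2272 against 2178 CPM, whereas Top2a, a topoisomerase of dividing cells, was at 1128 against 9.95. Summed over both large cells, H2-K1, H2-D1 and B2m were thus below the level of the other cells. The other members were not computed for these cells. Without the large cells 5 genes were called, namely H2-K1, Tap1 and Tap2 higher and Calr and Tapbp lower, and H2-T23 was not (adjusted p = 0.0604). Over all genes, 2150 of 5126 were then called in either direction.

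Among the other pathway genes in T cells, 5 of 17 were higher and 6 lower. The nonclassical heavy chains H2-T22 (116 against 43.5 CPM, log2 fold 1.24 ± 0.27, adjusted p = 0.000822) and H2-Q7 (252 against 111 CPM, 1.04 ± 0.32, adjusted p = 0.0114; 2 of 3 mice) had the largest folds among the higher genes. Fcgrt (13.3 against 562 CPM, -5.02 ± 0.43, adjusted p = 4.25e-09) and the interferon regulatory factor Irf8 (26.2 against 199 CPM, -2.88 ± 0.46, adjusted p = 2.27e-05) had the largest among the lower ones.

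In cDC1 the transporter genes were higher than in macrophages, and no gene was called lower. The test called 3 of 9 genes higher (14.8% of all genes were called higher) and 0 lower (17.5% of all genes were called lower). Tap1 was 4.52-fold higher (log2 fold 2.18 ± 0.28, adjusted p = 1.79e-06) and Tap2 3.03-fold higher (1.60 ± 0.21, adjusted p = 2.23e-06), both in 3 of 3 mice. H2-K1 was also higher in 3 of 3 mice (0.79 ± 0.27, adjusted p = 0.0269), but lost its call without mouse 2 (adjusted p = 0.132) or mouse 3 (adjusted p = 0.118), with DESeq2 (adjusted p = 0.0624) and with cells thinned to 2000 UMIs. H2-D1 (0.34, 95% interval -0.17 to 0.84), Tapbp (0.33, -0.08 to 0.75), H2-T23 (0.30, -0.18 to 0.77), Pdia3 (0.16, -0.27 to 0.59), Calr (-0.32, -0.76 to 0.11) and B2m (-0.38, -0.82 to 0.07) did not pass the test. The 3 cDC1 sums of B2m nevertheless lay below the 3 macrophage sums, and with cells thinned to 2000 UMIs B2m was called lower (-0.60, adjusted p = 0.0438). The median of the 9 genes was 0.33, against -0.06 over all genes.

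Of the other pathway genes, 6 of 17 were higher in cDC1 and 4 lower. Psmb9, the neighbour of Tap1, had the largest fold of these, with 871, 494 and 664 CPM in cDC1 against 106, 129 and 138 in macrophages (log2 fold 2.40 ± 0.21, adjusted p = 7.93e-09). Irf8, which cDC1 need for their development and which was also among the cDC1 markers checked above, followed (909 against 199 CPM, 2.18 ± 0.26, adjusted p = 1.01e-06). Fcgrt (167 against 562 CPM, -1.80 ± 0.29, adjusted p = 3.27e-05) and Irf1 (46.1 against 127 CPM, -1.44 ± 0.32, adjusted p = 0.00102) were lower. The plot of Tap1 against Psmb9 shows that the cDC1 sums stood apart for both genes, but within cDC1 the mouse with the lowest Tap1 (mouse 1) had the highest Psmb9.

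**Figure D2:**
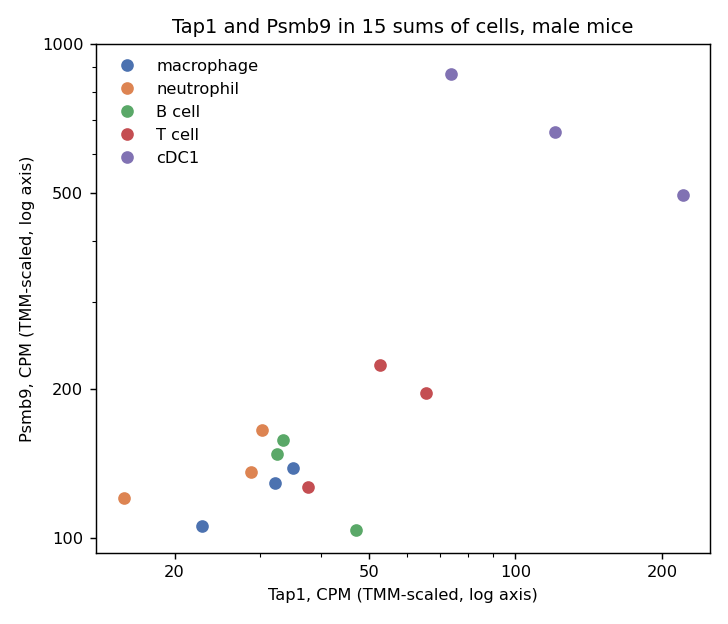
Tap1 (x axis) against Psmb9 (y axis), both in CPM (TMM-scaled) on log axes, in the 15 sums of 5 cell types and 3 male mice; each point is 1 sum and colors mark cell types. The 3 cDC1 points lie at 73.6 to 220 CPM of Tap1 and 494 to 871 CPM of Psmb9, apart from the other 12.

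The genes whose log2 CPM over the 15 sums were most like those of B2m were Itgb1 (Pearson's r = 0.94), Frmd4b (0.91), Rgs1 (0.90), Lgals1 (0.90) and Ppp1r15a (0.89). For Tap1 they were Nr4a2 (0.90), Cox6c (0.89), Traf1 (0.88), Itgae (0.88) and Sub1 (0.87). These correlations describe 5 cell types seen in the same 3 mice, in sums that share depth within a mouse and type, and none of the named genes belongs to the class I lists or to the genes that defined the cell types.

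Macrophages were next divided by Ccr2 and Fcrls, genes that mark the main macrophage subsets of the DRG. Ccr2 without Fcrls was detected in 154 macrophages (24, 47 and 83 by mouse), Fcrls without Ccr2 in 655 (77, 260 and 318), both in 567 and neither in 66. H2-D1 was higher in the cells with Ccr2 only, at 3030, 3569 and 3207 CPM against 2502, 2681 and 2502 in those with Fcrls only (log2 fold 0.35 ± 0.11, adjusted p = 0.0416; 3 of 3 mice, no overlap). It was the 1 gene of 9 that was called higher (5.29% of 5879 genes were), and 0 were called lower (4.17% of genes were). The other 8 ranged from -0.15 (Pdia3, 95% interval -0.41 to 0.11) to 0.47 (H2-T23, 0.09 to 0.84). H2-T23, with 241, 476 and 360 CPM against 254, 324 and 221, was also called with the mouse as a block (0.49 ± 0.13, adjusted p = 0.0191), which made 2 calls. Leaving out any 1 mouse ended the call of H2-D1 (adjusted p = 0.0797 to 0.274), and without scaling factors 0 genes were called. Of the other pathway genes, 19 were tested. Psmb8, an immunoproteasome subunit, was higher (347 against 253 CPM, 0.46 ± 0.13, adjusted p = 0.0351) and Fcgrt lower (342 against 578 CPM, -0.74 ± 0.15, adjusted p = 0.00376).

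In the main fit, macrophages with high interferon-response genes were called higher than the others for Tap1, Tap2, Tapbp, Nlrc5 and H2-T23. With the mouse as a block only Tap1 and Tap2 were called. Interferons are known to raise most genes of the pathway, so the choice of cells was not independent of the genes tested. The interferon-high cells were defined by at least 0.2% of UMIs in Isg15, Ifit1, Ifit2, Ifit3, Rsad2 and Ifi44. Of 1442 macrophages, 55 (3.81%) met this, 1 in mouse 1, 13 in mouse 2 and 41 in mouse 3. This is a range of a continuous score, with 33 cells between 0.1% and 0.2% and 23 between 0.2% and 0.4%. Because a sum of fewer than 5 cells was left out, mouse 1 entered the fit with its other macrophages only. The test called 5 of 10 genes higher (2.81% of 8225 genes were called higher) and 0 lower (0.0973% of genes were called lower). Of these 5, Nlrc5 passed the filter on low counts only through the interferon-high sums. The median of the 10 genes was 0.71, against -0.09 over all genes tested.

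Tap1 was at 55.0 and 167 CPM in the interferon-high cells of mice 2 and 3, against 19.4, 26.1 and 23.8 in the other macrophages of mice 1, 2 and 3, a log2 fold of 2.52 ± 0.32 (adjusted p = 0.000152). Tap2 was at 66.0 and 115 CPM against 39.3, 39.5 and 40.6 (1.35 ± 0.26, adjusted p = 0.008). Tapbp was at 198 and 285 CPM against 144, 136 and 126 (0.93 ± 0.21, adjusted p = 0.022). For each of these the interferon-high sum of mouse 3 was the higher one, and the groups did not overlap.

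H2-T23 was at 396 and 713 CPM against 268, 351 and 229 (1.06 ± 0.25, adjusted p = 0.0322). Nlrc5 passed the filter in this comparison, with 1 and 8 UMIs in the interferon-high sums of mice 2 and 3 (24.8 CPM in mouse 3) and 28 in the others (3.12, 2.45 and 1.91 CPM) (3.21 ± 0.76, adjusted p = 0.0307). It passed only through the interferon-high sums, at 12.1 and 21.7 CPM without scaling, against at most 3.05 in the others. Its call is therefore no independent support for a difference. The classical heavy chains and B2m were higher by smaller amounts that did not pass the test. H2-K1 had 847 and 1109 CPM against 693, 742 and 731 (0.46, 95% interval 0.08 to 0.85, adjusted p = 0.337), B2m 1684 and 2293 against 1462, 1375 and 1491 (0.48, 0.09 to 0.87, adjusted p = 0.327) and H2-D1 2861 and 4065 against at most 2809 (0.36, -0.04 to 0.76, adjusted p = 0.529). The chaperones Calr (-0.19, -0.66 to 0.28) and Pdia3 (-0.13, -0.54 to 0.28) did not pass the test.

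**Figure D3:**
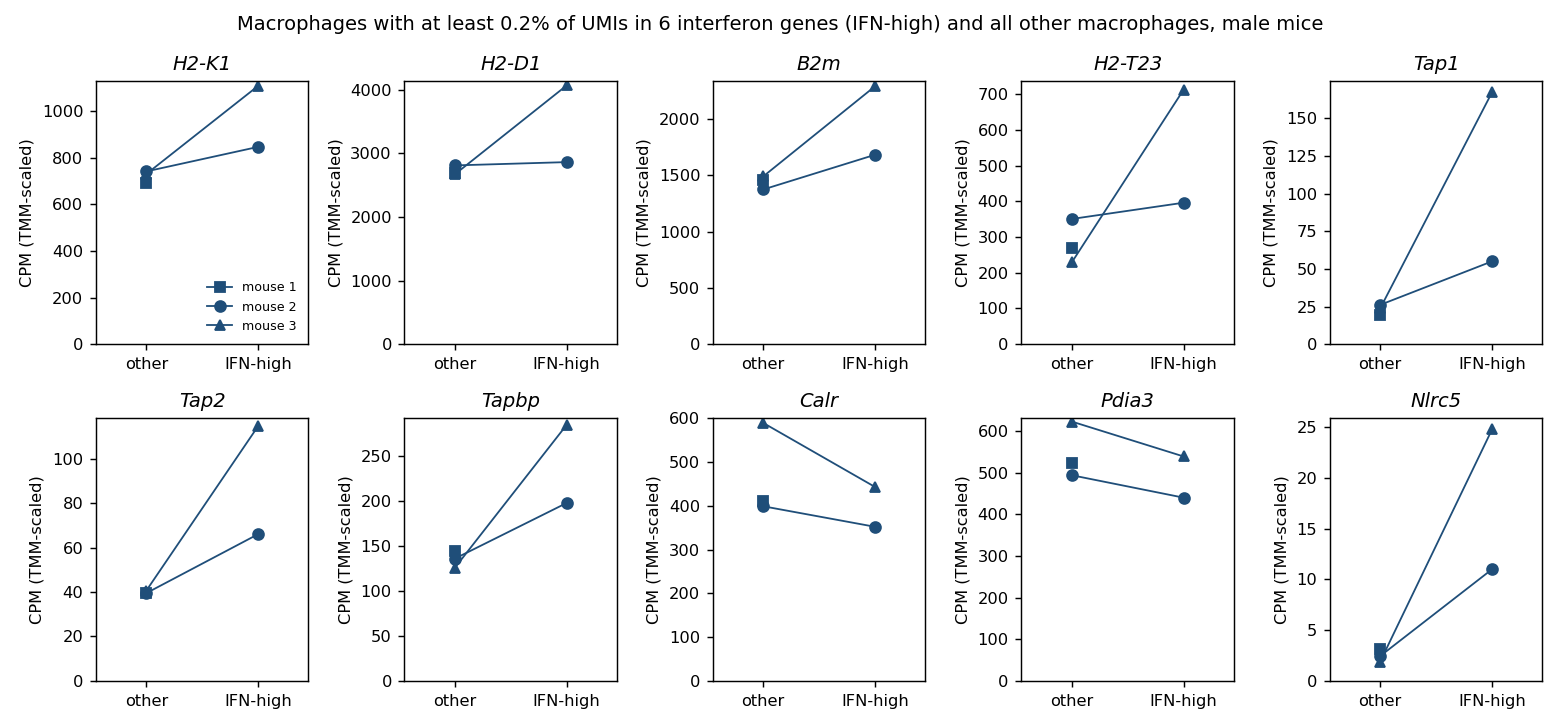
CPM (TMM-scaled, axes from 0) of the 10 genes in macrophages with at least 0.2% of UMIs in 6 interferon genes (IFN-high) and in all other macrophages of the male mice; each symbol is a mouse, and lines join the sums of 1 mouse. Mouse 1 has no IFN-high sum. For Tap1 the IFN-high sums of mice 2 and 3 (55.0 and 167 CPM) lie above the other macrophages (19.4 to 26.1 CPM).

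Mouse 3 gave 41 of the 55 cells. Without it the log2 fold of Tap1 was 1.18, against 2.52 in the main fit. The interferon-high group was then the 13 cells of mouse 2 alone, with 5 UMIs of Tap1. Without mouse 2 the interferon-high group was the cells of mouse 3 alone. In both cases the lone sum is assumed to vary like the sums of the other macrophages, so no calls are given for them. Without mouse 1 the count was 3 (Nlrc5, Tap1 and Tap2). With the mouse as a block it was 2, with Tap1 at 2.33 ± 0.37 (adjusted p = 5.31e-08) and Tap2 at 1.27 ± 0.37 (adjusted p = 0.0278). Of the other pathway genes, 7 of 21 were higher and 0 lower. The nonclassical heavy chain H2-T24 was among the higher ones (33.5 against 5.18 CPM, 2.60 ± 0.52, adjusted p = 0.00953). Its level in the other macrophages was low. Whether it passed the filter on low counts only through the interferon-high sums was not checked, so its call is no independent support either. Psmb9, named here outside the rule for its overlap with the Tap1 window, was at 198 and 424 CPM against 89.9, 105 and 105 (1.79 ± 0.24, adjusted p = 0.000233).

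In female mice the same comparisons were made on 597 macrophages, 66 neutrophils, 105 B cells, 52 T cells and 20 cDC1, with 2883 genes tested in a fit of their own, so that CPM are not on the scale of the male fit. In neutrophils 6 of 9 genes were lower than in macrophages (32.5% of all genes were) and 0 higher (22.9% of all genes were). Calr was at 36.6, 26.1 and 196 CPM against 529, 583 and 536 (log2 fold -2.62 ± 0.35, adjusted p = 4.43e-07). Pdia3 (-1.87), Tapbp (-1.48), B2m (-1.28), H2-K1 (-1.16) and H2-T23 (-0.74, adjusted p = 0.0149) were lower as well, and the neutrophil Calr values rest on 22 UMIs in all. H2-T23 lost its call without female mouse 2 or 3 (adjusted p = 0.235 and 0.0942) and with RLE scaling (adjusted p = 0.0609). H2-D1 measured 4591, 3863 and 3397 CPM in neutrophils against 4087, 3846 and 3476 in macrophages, so that it was again not among the lower genes, and the groups overlapped. In B cells 6 of 9 were lower (30% of all genes were), namely Pdia3 (-1.74), Calr (-1.43), H2-T23 (-1.25), Tapbp (-0.93), B2m (-0.85) and H2-D1 (-0.62), and 0 were higher (26.3% of all genes were). The call of H2-D1 was lost without female mouse 3 (adjusted p = 0.0623). Without scaling factors H2-D1 (-0.055, adjusted p = 0.795), B2m (-0.29, adjusted p = 0.18) and Tapbp (-0.36, adjusted p = 0.208) lost their calls and Tap1 was called higher (1.21, adjusted p = 0.0143). The medians of the 9 genes were -1.28 in neutrophils and -0.85 in B cells, against -0.30 and 0.01 over all genes.

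Female T cells had 2 of 9 genes higher (17.8% of all genes were) and 1 lower (24.8% of all genes were). H2-K1 was at 2091, 1635 and 1619 CPM against 1120, 1118 and 963 in macrophages (0.74 ± 0.20, adjusted p = 0.00389), Tap2 was also higher (0.95 ± 0.35, adjusted p = 0.0314) and Pdia3 lower (-0.71 ± 0.26, adjusted p = 0.0267). All 3 T cell sums of H2-K1 lay above the macrophage sums, whereas in the male mice mouse 1 had stood apart. Tap2 lost its call without any 1 of the 3 mice (adjusted p = 0.0928 to 0.148), and without female mouse 3 only H2-K1 was called. Without the filter on low counts Tap2 (adjusted p = 0.289) and H2-K1 (0.50, adjusted p = 0.12) lost their calls and Calr was called lower, and without scaling factors the call of Pdia3 was lost. Nlrc5 was at 44.7, 25.1 and 37.7 CPM in female T cells (9 UMIs), against 0.806 to 2.00 in female macrophages, while the male T cell sums held 2 UMIs in all. Nlrc5 did not pass the filter here, and without the filter it was called higher in female T cells (log2 fold 4.10, adjusted p = 0.000139), on these 9 UMIs.

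Female cDC1 had 2 of 9 genes higher (13.9% of all genes were) and 1 lower (18.2% of all genes were). Tap1 was at 100.2, 174 and 95.6 CPM against 36.3, 25.0 and 30.3 in macrophages (2.04 ± 0.44, adjusted p = 0.000562) and Tap2 at 85.9, 223 and 172 against 49.1, 48.9 and 51.3 (1.70 ± 0.33, adjusted p = 0.000151). For both transporter genes the 3 cDC1 sums lay above the 3 macrophage sums, in mice that the male comparison had not used. The cDC1 values rest on 26 UMIs of Tap1 and 33 of Tap2. H2-K1, called higher in male cDC1, was not called here. It was at 1461, 968 and 1148 CPM against 1120, 1118 and 963 in macrophages, and the groups overlapped. B2m was lower (-0.57 ± 0.20, adjusted p = 0.0299), which was lost without female mouse 2 (adjusted p = 0.436) or 3 (0.177), with RLE scaling (0.0507) and without scaling factors (0.0596). Without female mouse 2 only Tap2 was called (adjusted p of Tap1 = 0.0545). The medians of the 9 genes were 0.13 in T cells and 0.16 in cDC1, against -0.05 and -0.22 over all genes. Of the other pathway genes, 15 were tested in the female mice, and 0 were higher and 9 lower in neutrophils, 1 and 8 in B cells, 2 and 4 in T cells and 4 and 2 in cDC1. Psmb9 was among the higher genes in cDC1 (516, 397 and 536 CPM against 137, 159 and 140; 1.71 ± 0.20, adjusted p = 1.2e-07), named for its overlap with the Tap1 window. The plot of folds by sex shows both sets side by side.

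**Figure D4:**
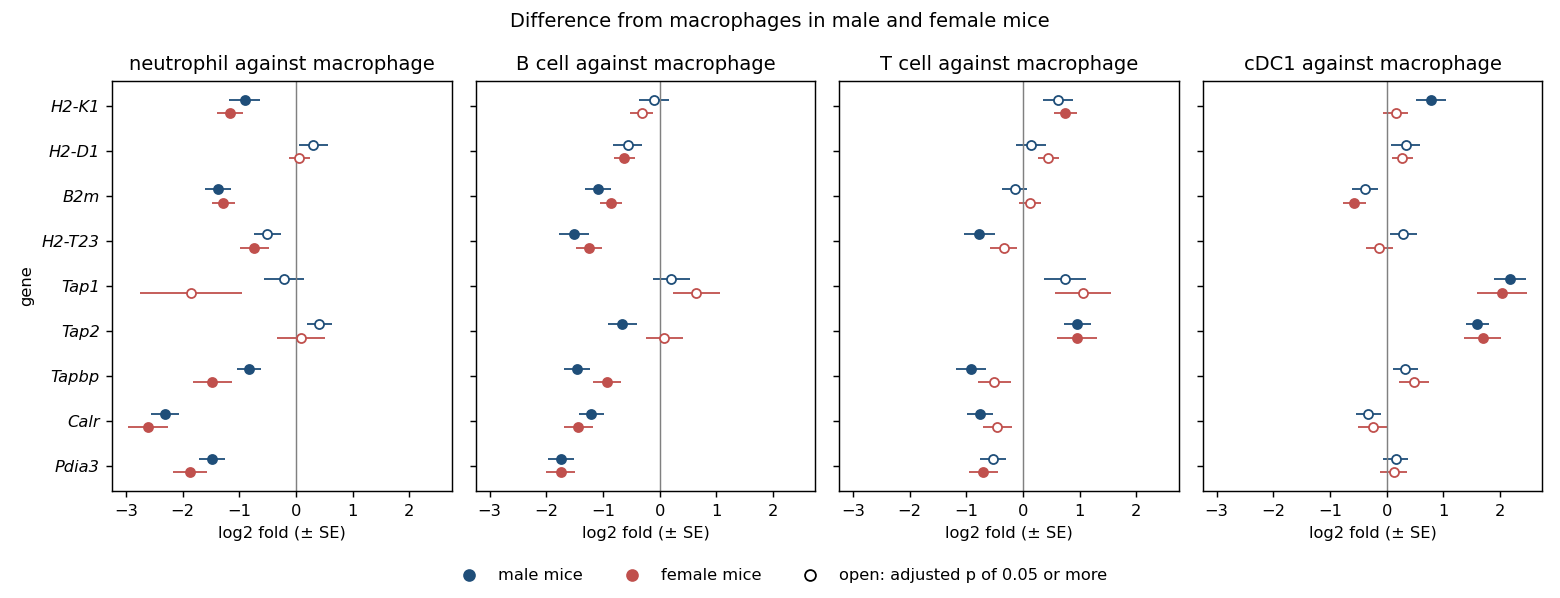
Log2 fold (x axis) against macrophages of the same sex for 9 genes in neutrophils, B cells, T cells and cDC1, with SE as bars; blue points are the male mice and red points the female mice (n = 3 each), and filled points passed the test. Tap1 and Tap2 are to the right of 0 in cDC1 of both sexes, and Calr and Pdia3 are to the left of 0 in neutrophils and B cells of both.

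The sexes were compared directly in macrophages and in the difference between neutrophils and macrophages. In macrophages 0 of 9 genes were called higher in females (0.0496% of 8070 genes were) and 0 lower (0.0372% of genes were). DESeq2 called 0 as well, and at an unadjusted p under 0.05 edgeR gave 1 of the 9 and 462 of all genes. That gene was H2-K1, with 907, 896 and 768 CPM in females and 694, 749 and 745 in males (log2 fold 0.23 ± 0.09, adjusted p = 0.822; no overlap). The difference between the sexes in neutrophils against macrophages was called for 0 of 9 genes in either direction (0% of 7937 genes in each direction, with 425 genes and none of the 9 at an unadjusted p under 0.05), and DESeq2 called 0 of the 9. The other cell types were not compared between the sexes.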

How the data were processed

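The 6 hashtagged mice were pooled in 1 lane of 10x 3′ single-cell RNA-seq. Per the submitters' processing notes and the matrix header, reads were counted with Cell Ranger 3.1.0 against mm10. The values deposited by the authors are raw UMI counts per gene and cell, in a matrix of the cells kept by their filters (over 200 and under 5000 genes, under 5% mitochondrial reads, 1 hashtag) and a larger one of 4395 barcodes with hashtag counts. The filters and hashtag demultiplexing (Seurat 5.3.0 in R 4.3.3) were repeated on the larger matrix, which gave the same male cells, with 0 differing entries, and 1073 female cells. No doublet caller was run. The hashtag filter can remove doublets of different mice only. Of the 327 male cells removed for meeting several definitions, 283 met those of neutrophils and T cells, with 0 UMIs of Cd3e. Doublets of 1 type from 1 mouse are removed by neither filter. The number of columns of other samples left unused was 0.

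Cells were assigned to types by fixed genes, and UMIs were summed per mouse and type, leaving out sums under 5 cells. Sums were tested with edgeR 4.0.16 (TMM, filterByExpr, glmQLFit and glmQLFTest, two-sided, Benjamini-Hochberg over all genes tested, threshold 0.05). The SE was derived from the log2 fold and the F statistic of that test. The 95% intervals are the log2 fold ± 1.96 SE, a normal approximation that can be too narrow with so few sums. Each of the 4 male type comparisons, and each of the female ones, used the same macrophage sums. A mouse is 1 sample, and all mice passed through 1 lane. The p-values weigh a difference against the spread of sums within groups, pooled over the groups of a fit. The mouse was not a term of the main fit. The types of 1 sum set come from the same animals, so the mouse pairs them. Deviations from the type means correlated with a median r of 0.034 between types of the same mouse (30 pairs) and -0.0072 between types of other mice (60 pairs). The 10 genes, the pathway list and the definitions of types were chosen with earlier results of these data known. The genes named were all members and, of the pathway list, up to 2 called genes per direction with the largest fold in each comparison; 1 gene of that list is counted but not reported here. For B2m and Tap1 the 5 genes with the highest Pearson correlation were also named. The tests were checked on counts simulated with known changes. In these counts all groups had the same mean levels, apart from a small set of changed genes in 1 group. Far more genes were called in the real neutrophil comparison, so the check does not cover errors of scaling between cell types. Where the true log2 change was 1, edgeR called 85.4% of changed genes in neutrophils against macrophages. It called 61.3% in Ccr2 against Fcrls and 19.6% in interferon-high macrophages. Where it was 2, the shares were 100%, 96.7% and 57.1%, and false calls were 12, 9 and 4. A gene that did not pass in interferon-high macrophages can thus still differ. The check covered these comparisons only. Alternatives were other scaling (RLE, or none), no filter on low counts, DESeq2 1.42.0, the mouse as a block, leaving out each mouse, leaving out the defining genes, definitions made stricter by a factor of 2, cells thinned to 2000 UMIs, other interferon cutoffs, and the 2 alternatives on T cells and neutrophils named in the report, which, like no scaling, were chosen after seeing the data.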

Additional observations from a re-analysis of the deposited data

How the results depend on the processing

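Of the log2 folds recomputed for named genes, 638 kept direction and side of the threshold, 60 lost a call, 27 gained one and 19 changed sign, and the cause was not tested. In male mice the calls that held under every alternative tried were B2m, Calr and Pdia3 in neutrophils (12 alternatives), Calr, Pdia3, Tapbp and H2-T23 in B cells (11), and Tap1 and Tap2 in cDC1 (10; they did not pass the filter after thinning). In female mice they were B2m, Calr, Pdia3, Tapbp and H2-K1 in neutrophils (9), Calr, Pdia3 and H2-T23 in B cells (8) and Tap2 in cDC1 (8).

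Leaving out 1 mouse at a time gave counts of called genes of 3 to 6 in neutrophils, 5 to 5 in B cells, 1 to 3 in T cells (1 without mouse 1), 2 to 3 in cDC1 and 0 to 0 for Ccr2 against Fcrls. For interferon-high macrophages the count was 3 without mouse 1 (246 of 8583 genes were called). Leaving out mouse 2 or mouse 3 left a lone interferon-high sum. In female mice the ranges were 5 to 7 in neutrophils (Tap1 added without mouse 1), 5 to 6 in B cells, 1 to 4 in T cells (H2-D1 and Tapbp added without mouse 1) and 1 to 3 in cDC1. There 2813, 3088 and 2723 genes were tested without mice 1, 2 and 3. Of these, 1310, 1466 and 1249 were called in neutrophils and 1382, 1431 and 1285 in B cells. T cells had 1016, 1108 and 948 and cDC1 757, 750 and 695. Both comparisons of the sexes stayed at 0. After thinning to 2000 UMIs, which also left out cells with fewer, no cDC1 call of the main fit remained. Tap1 and Tap2 did not pass the filter and H2-K1 lost its call. B2m, not called in the main fit, was then called lower. For Ccr2 against Fcrls the count was 0 without the filter, 0 after thinning, 0 without scaling and 2 with the replicate block. With the block it was 6 in neutrophils (H2-T23 added, -0.51, adjusted p = 0.0414), 7 in B cells (H2-D1 added, -0.57, adjusted p = 0.0338), 4 in T cells, 3 in cDC1 and 2 for interferon-high macrophages, and in female mice 6, 6, 3 and 3 in the same order of types. Beside these gains, that of H2-T23 in Ccr2 against Fcrls and the losses of Tapbp, H2-T23 and Nlrc5 in interferon-high macrophages, the block changed no other call. Of all genes, it called 3068, 2954, 2315 and 1644 of 5130 in the 4 types in male mice. In female mice it called 1580, 1592, 1231 and 924 of 2883. It called 680 of 5879 for Ccr2 against Fcrls and 220 of 8225 for interferon-high macrophages. In female T cells DESeq2 called 5 (H2-D1 and Tap1 higher beside the 3) and no scaling 5 (H2-K1, H2-D1, B2m, Tap1 and Tap2, all higher). Of all 2883 genes tested, these 2 settings called 1250 and 1449. Over all genes, dropping the filter raised the number called from 3097 to 5340 in neutrophils and from 3006 to 4730 in B cells, and thinning, after which 2120 genes were tested in place of 5130, gave 1436, 1200, 964 and 526 in the 4 types.

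Log2 folds that changed sign were, without the filter, H2-D1 in T cells (-0.031). Leaving out a mouse changed B2m in T cells (-0.31 to 0.15, positive without mouse 1), Tap1 in neutrophils (-0.35 to 0.028, positive without mouse 2), and H2-D1 in T cells (-0.094 to 0.45) and Tapbp in Ccr2 against Fcrls (-0.056 to 0.26), both negative without mouse 3. Thinning changed H2-K1 in B cells (0.27), H2-D1 (-0.025) and H2-T23 (-0.19) in cDC1, and B2m (-0.13) and H2-K1 (-0.10) in Ccr2 against Fcrls. Without scaling factors the signs of Tap2 (-0.0057) and H2-D1 (-0.10) in neutrophils, H2-K1 (0.56) and H2-D1 (0.10) in B cells, B2m in T cells (0.36), and B2m (-0.059) and H2-K1 (-0.037) in Ccr2 against Fcrls changed, with the median gene moved by -0.42 in neutrophils, 0.65 in B cells, 0.51 in T cells and 0.0017 in cDC1. B2m in T cells was 0.019 without the large cells of mouse 1, and Pdia3 in interferon-high macrophages 0.025 at a cutoff of 0.4%. The cutoff of 0.1% gave 4 calls and that of 0.4% gave 6.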

Other observations

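Cells that entered no comparison also carried class I transcripts, given here as CPM without scaling in male mice 1, 2 and 3. The 342 cells that met no definition (median 9468.5 UMIs per cell) had 779, 896 and 863 of H2-K1, 2895, 3394 and 3223 of H2-D1 and 1197, 1240 and 1338 of B2m. Ccr2, a chemokine receptor of monocytes, was at 737, 649 and 682 in them, and the monocyte gene Ly6c2 at 500, 430 and 761.

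The 283 cells that met both the neutrophil and the T cell definition had a median of 10153 UMIs, against 3635.5 in the cells that met the neutrophil definition alone. H2-D1 was at 1352, 1491 and 1624 in the former and 2276, 2292 and 3199 in the latter. Calr was at 33.1, 53.1 and 30.8 against 83.7, 74.6 and 61.3, while B2m was at 354, 417 and 382 against 366, 465 and 462. For H2-D1 and Calr the values of both sets of cells did not overlap between mice, and for B2m they did.

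Nlrc5 held few UMIs in the Ccr2 and Fcrls subsets of macrophages, 3, 3 and 2 in the cells with Ccr2 only and 0, 3 and 7 in the larger set with Fcrls only. The corresponding levels were 17.2, 9.28 and 2.88 CPM against 0, 1.60 and 2.16. The difference was not tested, since the gene did not pass the filter.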
